A study of Mus with 3 samples.

Results

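The genes described here are 8 members of the epidermal growth factor (EGF) family, the ligands Areg, Ereg, Hbegf, Btc and Tgfa and the receptors Egfr, Erbb2 and Erbb3. They were taken by symbol, and all 8 were found among the 27998 genes of each matrix. Lung cells were profiled with the 10x Chromium 3′ v3 kit, which tags each captured transcript with a unique molecular identifier (UMI). The study set out 3 groups of female mice aged 6 to 12 weeks: DJ-1 knockouts given an ovalbumin challenge (DJ-1 KO OVA), wild types given the same challenge (WT OVA) and wild types given PBS instead (WT PBS). Each group was 1 library made from whole lung cells pooled over 3 mice. The labels give neither the knockout allele nor the strain, and they conflict for the WT PBS library, which is titled as ovalbumin challenged but is given PBS as its treatment and in its library name; the treatment label was followed. With 1 library a group there is no spread between replicates. Levels are therefore given as UMIs per 1000000 UMIs of the same cells (CPM) with 95% exact Poisson intervals, and ratios of CPM with exact intervals conditional on the summed UMIs. These intervals cover counting error only, and a difference between libraries cannot be told apart from a difference between pools of mice.

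The EGF family ligands are made as membrane-anchored precursors that metalloproteases such as ADAM17 release from the cell surface. Amphiregulin (Areg) and transforming growth factor alpha (Tgfa) bind the EGF receptor, while epiregulin (Ereg), heparin-binding EGF-like growth factor (Hbegf) and betacellulin (Btc) bind both Egfr and Erbb4. Erbb2 has no known ligand of its own and acts as the partner of the other receptors, and Erbb3 binds neuregulins and has a weak kinase. In the lung the family is known for airway and alveolar repair, and amphiregulin from group 2 innate lymphoid cells (ILC2) and regulatory T cells is a known tissue-repair factor.

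A total of 17339386 UMIs in 4666 barcodes was deposited for DJ-1 KO OVA, 24438516 UMIs in 6406 barcodes for WT OVA and 26548669 UMIs in 4556 barcodes for WT PBS. The DJ-1 KO OVA and WT PBS libraries shared 372 barcodes, and the cell with fewer UMIs was left out of each such pair. This took 66 cells from DJ-1 KO OVA and 306 from WT PBS. The other pairs of libraries shared 5 and 6 barcodes. After the other filters 4438 DJ-1 KO OVA, 5930 WT OVA and 3855 WT PBS cells remained. The median cell had 1653 UMIs in DJ-1 KO OVA, 2060.5 UMIs in WT OVA and 4093 UMIs in WT PBS. Park7, the gene that encodes DJ-1, had 20.8 CPM in DJ-1 KO OVA, 100.3 CPM in WT OVA and 135.6 CPM in WT PBS, so it was lower but not at 0 in the knockout library. A cluster of immature T cells marked by Rag1 and Dntt held 784 DJ-1 KO OVA, 9 WT OVA and 29 WT PBS cells, and it was kept apart from the lymphoid lineage. Clusters were named from marker genes and called "-like". No cluster could be named AT1-like, basal or tuft, so these epithelial types are not described.

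Over all kept cells every member was detected in every library. Counts were largest for Areg, with 2861 in DJ-1 KO OVA, 3008 in WT OVA and 1479 in WT PBS. Those of Btc were the smallest, with 54 in DJ-1 KO OVA, 73 in WT OVA and 51 in WT PBS. A 3′ count does not depend strongly on transcript length, but capture differs between genes, so levels are compared below between cells and libraries and not between genes. In GRCm38, Ereg (chr5:91074617-91093649), Areg (chr5:91139599-91148432) and Btc (chr5:91357261-91402994) lie beside Epgn in a span of 375 kb that holds 7 annotated genes, 4 of them protein coding. Tgfa is at chr6:86195038-86275744, Egfr at chr11:16752203-16913907, Erbb2 at chr11:98412484-98437716 and Erbb3 at chr10:128567523-128589635. The UMIs of the neighbours Areg, Ereg and Btc were divided differently over the lineages. In WT OVA, Areg UMIs came from epithelial (44.4%), myeloid (28.8%) and lymphoid (21.8%) cells. Ereg UMIs came mainly from myeloid cells (86.6%) and Btc UMIs mainly from epithelial cells (87.7%). Areg thus had a myeloid source in common with Ereg and an epithelial source in common with Btc. In WT OVA, 58 of 188 alveolar macrophage-like cells had UMIs of both Areg and Ereg.

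**Figure D1:**
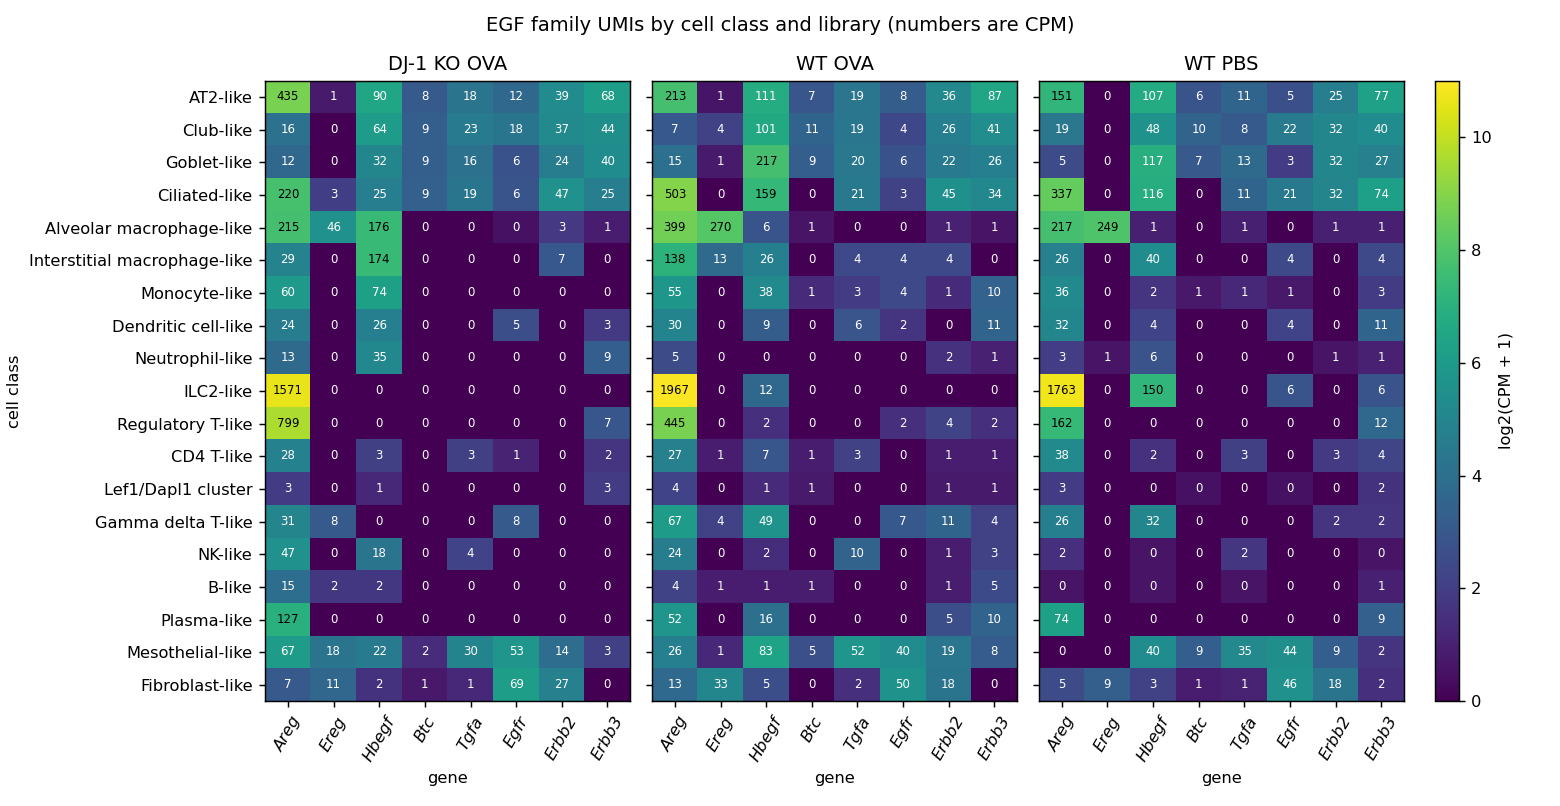
Level (CPM, printed in each cell, with colour as log2(CPM + 1)) of the 8 genes in each cell class, in DJ-1 KO OVA (left), WT OVA (middle) and WT PBS (right). ILC2-like and regulatory T-like rows are high in Areg, the alveolar macrophage-like row is high in Ereg in WT OVA and WT PBS and in Hbegf in DJ-1 KO OVA, and among the classes drawn Egfr is highest in the fibroblast-like and mesothelial-like rows. Ciliated-like (12 DJ-1 KO OVA, 12 WT OVA and 7 WT PBS cells), interstitial macrophage-like and plasma-like rows hold under 50 cells in every library, and smooth muscle-like, endothelial, erythroid, immature T and cycling cells are not drawn.

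The plot of all members by class shows the division of the family between ligand and receptor cells. Receptor UMIs were sparse in lymphoid and myeloid cells. Erbb3 was at 2.0 CPM in DJ-1 KO OVA, 2.57 CPM in WT OVA and 2.35 CPM in WT PBS lymphoid cells, and Erbb2 had 0 UMIs in the DJ-1 KO OVA lymphoid cells, which allows up to 0.855 CPM by the limit of 3 counts. The clustering could use the members themselves, so differences between classes are a description of where the UMIs lay.

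Areg, the ligand with the widest set of sources, was highest per UMI in ILC2-like cells of all 3 libraries. In these cells it had 1571 CPM (1419 to 1734) in 99 DJ-1 KO OVA cells, 1967 CPM (1759 to 2194) in 63 WT OVA cells and 1763 CPM (1564 to 1981) in 36 WT PBS cells. The DJ-1 KO OVA level was 0.798 times the WT OVA level (0.687 to 0.928), within 1.5-fold, and the 3 libraries lay close together. After every cell was thinned to 1000 UMIs, Areg was found in 49 of 98 DJ-1 KO OVA cells, 30 of 62 WT OVA cells and 20 of 36 WT PBS ILC2-like cells. Without thinning the share was 65.7% in DJ-1 KO OVA, 60.3% in WT OVA and 72.2% in WT PBS. In B-like cells, which are not known as a source of Areg, the unthinned share was 1.81% in DJ-1 KO OVA, 0.541% in WT OVA and 0.159% in WT PBS. The median B-like cell had 1105 UMIs in DJ-1 KO OVA, 1292 UMIs in WT OVA and 2979.5 UMIs in WT PBS, and the median ILC2-like cell 2116 UMIs in DJ-1 KO OVA, 2223 UMIs in WT OVA and 4298 UMIs in WT PBS.

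Within ILC2-like cells Areg varied with Il5, a type 2 cytokine gene, but not with Il5 alone. Cells with an Il5 UMI had 3315 CPM of Areg in DJ-1 KO OVA, 3249 CPM in WT OVA and 2666 CPM in WT PBS. Cells without one had 1249 CPM in DJ-1 KO OVA, 1676 CPM in WT OVA and 1378 CPM in WT PBS. The cells with Il5 were 16 of 99 in DJ-1 KO OVA, 10 of 63 in WT OVA and 11 of the 36 WT PBS cells, so the higher level rests on few cells in each library. Areg with and without an Il13 UMI was at 2254 and 1366 CPM in DJ-1 KO OVA. These levels were 2954 (2 cells) and 1934 CPM in WT OVA, and 2632 (4 cells) and 1641 CPM in WT PBS. With and without an Il2ra UMI it was at 1910 and 1299 CPM in DJ-1 KO OVA, 2179 and 1834 CPM in WT OVA, and 2054 and 658 CPM in WT PBS. In WT OVA the intervals overlapped for both genes. Il1rl1, which encodes the IL-33 receptor, was detected in 95 of 99 DJ-1 KO OVA cells, 58 of 63 WT OVA cells and 33 of 36 WT PBS cells of this class. In WT OVA the cells with Il1rl1 had the lower Areg level, 1904 CPM against 2824 CPM in the 5 cells without it.

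Regulatory T-like cells had the next highest Areg level per UMI among the lymphoid classes, although in WT PBS the CD4 T-like cells held 57 Areg UMIs and they held 55. Their level was 799 CPM (719 to 886) in 173 DJ-1 KO OVA cells, 445 CPM (390 to 506) in 182 WT OVA cells and 162 CPM (122 to 211) in 53 WT PBS cells. That is 1.80-fold higher in DJ-1 KO OVA cells than in WT OVA cells (1.52 to 2.13) and 2.75-fold higher in WT OVA cells than in WT PBS cells (2.04 to 3.75). Differences of at least 1.5-fold were common in this class, with 16.4% of all genes higher and 10.1% lower in the first pair and 18% higher and 11.2% lower in the second. The share of cells with Areg did not follow the level between the first pair, since after thinning an Areg UMI was found in 22.7% of 163 cells in DJ-1 KO OVA, 21.6% of 176 cells in WT OVA and 9.62% of 52 cells in WT PBS. Without thinning the share was 26.6% in DJ-1 KO OVA, 31.9% in WT OVA and 30.2% in WT PBS.

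The higher Areg level of DJ-1 KO OVA lay in cells with Il1rl1 but no Foxp3 UMI. Foxp3 encodes the transcription factor that defines regulatory T cells. In DJ-1 KO OVA, 29 of 173 regulatory T-like cells had Il1rl1 but no Foxp3 UMI. These cells held 265 Areg UMIs, 73.6% of the class, at 2745 CPM, and 62 UMIs of Il13, a type 2 cytokine gene. The same subset in WT OVA was 22 cells with 48 Areg UMIs at 668 CPM and no Il13 UMI, and in WT PBS 3 cells with 11 Areg UMIs. Cells with UMIs of both Foxp3 and Il1rl1 had 806 CPM of Areg in DJ-1 KO OVA, 743 CPM in WT OVA and 237 CPM in WT PBS. Among them the DJ-1 KO OVA and WT OVA levels were near each other. In cells without an Il1rl1 UMI the DJ-1 KO OVA level was the lower. Those with Foxp3 had 75.9 CPM in 52 DJ-1 KO OVA cells (8 UMIs) and 301 CPM in 57 WT OVA cells (43 UMIs). Those with neither gene had 65.4 CPM in 60 DJ-1 KO OVA cells (10 UMIs) and 240 CPM in 65 WT OVA cells (42 UMIs). At a clustering resolution of 2, where fewer cells were named regulatory T-like, Areg was at 328 CPM in 135 DJ-1 KO OVA cells, 480 CPM in 166 WT OVA cells and 201 CPM in 43 WT PBS cells. There the DJ-1 KO OVA over WT OVA ratio was reversed (log2 ratio -0.55).

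The remaining lymphoid classes held little Areg. CD4 T-like cells had 27.9 CPM in DJ-1 KO OVA, 26.9 CPM in WT OVA and 37.6 CPM in WT PBS, where a single cell held 34 of the 57 UMIs. NK-like cells had 46.7 CPM in DJ-1 KO OVA, 23.8 CPM in WT OVA and 1.90 CPM in WT PBS. A single DJ-1 KO OVA NK-like cell held 21 of its library's 26 UMIs, so that level rests on 1 cell, and with a doublet score limit of 0.25 in all libraries the DJ-1 KO OVA over WT OVA ratio was reversed (log2 ratio -1.38). Over all lymphoid cells Areg was at 235 CPM in DJ-1 KO OVA (825 UMIs), 106 CPM in WT OVA (657 UMIs) and 46.6 CPM in WT PBS (435 UMIs). ILC2-like cells were 99 of 1922 lymphoid cells in DJ-1 KO OVA, 63 of 3152 such cells in WT OVA and 36 of 2096 such cells in WT PBS, and their part in the lineage level was not tested.

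**Figure D2:**
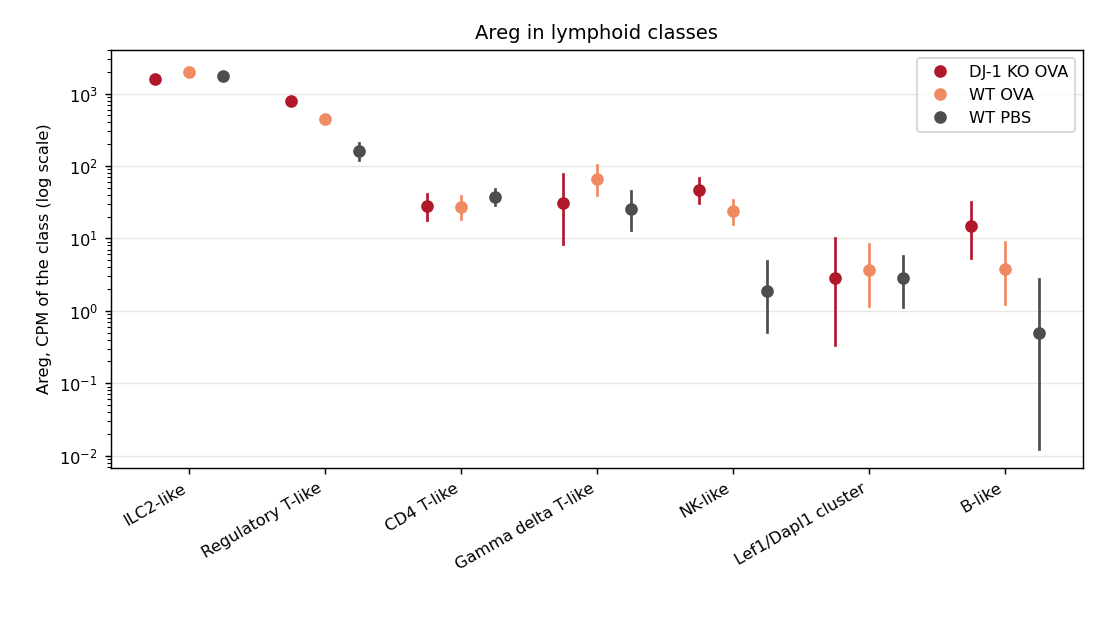
Areg level (CPM of the class, log scale) in lymphoid classes of DJ-1 KO OVA (red), WT OVA (orange) and WT PBS (grey), with points for the value and bars for the 95% exact Poisson interval. ILC2-like levels of the 3 libraries lie between 1571 and 1967 CPM, while the regulatory T-like level is 799 CPM in DJ-1 KO OVA, 445 CPM in WT OVA and 162 CPM in WT PBS.

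The plot of Areg by lymphoid class shows that the intervals of all 3 libraries are separate in the regulatory T-like class, while in the other classes at least 2 libraries overlap. Areg in epithelial cells came mainly from AT2-like cells, the surfactant-producing cells of the alveolus. There the level was 435 CPM (411 to 461) in 296 DJ-1 KO OVA cells, 213 CPM (201 to 226) in 769 WT OVA cells and 151 CPM (139 to 163) in 303 WT PBS cells. It was 2.04-fold higher in DJ-1 KO OVA cells than in WT OVA cells (1.88 to 2.22), and 1.41-fold higher in WT OVA cells than in WT PBS cells (1.28 to 1.56), which is within 1.5-fold. By the same 1.5-fold rule 17.8% of all genes were higher and 8.6% lower in DJ-1 KO OVA AT2-like cells, and 8.29% were higher and 7.05% lower in those of WT OVA than of WT PBS. After thinning, 18.7% of 284 DJ-1 KO OVA cells, 13.7% of 766 WT OVA cells and 12.5% of 296 WT PBS AT2-like cells had an Areg UMI. The intervals of these shares overlap between all 3 libraries. Without thinning the shares were 45.6% in DJ-1 KO OVA, 35.8% in WT OVA and 36.0% in WT PBS, at median depths of 9225.5 UMIs in DJ-1 KO OVA, 6922 UMIs in WT OVA and 13926 UMIs in WT PBS.

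Different clusters held most AT2-like cells of the libraries. Cluster 5, led by Sftpc, held 68 DJ-1 KO OVA, 691 WT OVA and 302 WT PBS cells. Cluster 12, led by Slc26a4, Chia1, Il33 and Lcn2, held 228 DJ-1 KO OVA, 78 WT OVA and 1 WT PBS cell. Areg was higher in DJ-1 KO OVA cells than in WT OVA cells inside both, at 552 CPM in DJ-1 KO OVA and 216 CPM in WT OVA in cluster 5 (2.56-fold, 2.21 to 2.95). In cluster 12 it was at 413 CPM in DJ-1 KO OVA and 196 CPM in WT OVA (2.11-fold, 1.77 to 2.52). Over the 13 alternatives in processing that gave a value, the AT2-like ratio stayed between 1.89 and 2.08.

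Club-like and goblet-like cells, the secretory cells of the airway, held little Areg. It was at 16.1 CPM in DJ-1 KO OVA (14 UMIs), 7.13 CPM in WT OVA (10 UMIs) and 19.3 CPM in WT PBS (15 UMIs) club-like cells. Goblet-like cells had 11.7 CPM in DJ-1 KO OVA, 15.2 CPM in WT OVA and 4.63 CPM in WT PBS. The few ciliated-like cells had 220 CPM in DJ-1 KO OVA (4 cells with a UMI), 503 CPM in WT OVA (6 cells) and 337 CPM in WT PBS (5 cells).

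Alveolar macrophage-like cells were the main myeloid source of Areg, and here the DJ-1 KO OVA level was lower. It was 215 CPM (197 to 235) in 261 DJ-1 KO OVA cells, 399 CPM (371 to 428) in 188 WT OVA cells and 217 CPM (190 to 247) in 59 WT PBS cells. Of the genes with at least 20 UMIs, 12% were at least 1.5-fold higher and 18.1% lower in DJ-1 KO OVA than WT OVA cells of this class, and 10.1% higher and 16.5% lower in WT OVA than WT PBS cells. The ratio was 0.539 between DJ-1 KO OVA and WT OVA cells (0.481 to 0.604) and 1.83 between WT OVA and WT PBS cells (1.58 to 2.13). After thinning, 12.3% of 235 DJ-1 KO OVA cells, 24.3% of 181 WT OVA cells and 15.8% of 57 WT PBS cells had an Areg UMI. Without thinning the shares were 32.6% in DJ-1 KO OVA, 51.6% in WT OVA and 37.3% in WT PBS. The libraries filled the sub-clusters of this class unequally. The one led by Ereg held 387 of the 777 WT OVA Areg UMIs in 78 cells, and had 4 DJ-1 KO OVA cells. In the one led by Ccl17, Areg was at 317 CPM in 82 DJ-1 KO OVA cells and 394 CPM in 12 WT OVA cells, with overlapping intervals, and in the one led by C1qa at 224 CPM in 40 DJ-1 KO OVA cells and 268 CPM in 14 WT OVA cells. In the one led by Ccl5, Gzma and Cd3d it was at 72.3 CPM in 40 DJ-1 KO OVA cells and 460 CPM in 30 WT OVA cells. The DJ-1 KO OVA value was thus the lower in each of these sub-clusters, but by unlike amounts. The intervals overlapped in those led by Ccl17 and C1qa and were apart in the one led by Ccl5. The part of the sub-clusters in the class ratio was not tested. The WT OVA over WT PBS difference fell within 1.5-fold when every cell was thinned (log2 ratio 0.20) or weighted alike (log2 ratio 0.40).

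Ereg, which encodes epiregulin, was a gene of alveolar macrophage-like cells in WT OVA and WT PBS and was lower in DJ-1 KO OVA. Its level in this class was 46.4 CPM (38.1 to 56.0) in DJ-1 KO OVA, 270 CPM (248 to 294) in WT OVA and 249 CPM (219 to 281) in WT PBS. Of the cells, 30 of 261 DJ-1 KO OVA cells, 81 of 188 WT OVA cells and 24 of 59 WT PBS cells had an Ereg UMI. The DJ-1 KO OVA level was 0.172 times that of WT OVA (0.138 to 0.211), whereas WT OVA over WT PBS was 1.09 (0.936 to 1.27), an interval that holds 1. After thinning the shares were 2.98% in DJ-1 KO OVA, 19.9% in WT OVA and 17.5% in WT PBS. The B-like share with an Ereg UMI was 0.437% of thinned DJ-1 KO OVA cells, 0.122% of thinned WT OVA cells and 0 of 612 thinned WT PBS cells, which allows up to 0.490%. The macrophage sub-cluster led by Ereg held 337 of the 527 WT OVA UMIs in 78 cells, and had 4 DJ-1 KO OVA cells. Ereg was at 50.2 CPM in DJ-1 KO OVA and 181 CPM in WT OVA in the one led by Ccl17. In the same order it was at 61.7 and 271 CPM in the one led by Ccl5. In that led by Hbb-bs it was at 65.2 CPM (9 UMIs in 9 DJ-1 KO OVA cells) and 38.9 CPM (8 UMIs in 15 WT OVA cells), with overlapping intervals. The one led by B3gnt7 had 15.4 CPM in 17 DJ-1 KO OVA cells and 114 CPM in 28 WT OVA cells. In the one led by Cd79a, 2 DJ-1 KO OVA cells had 0 UMIs and 9 WT OVA cells 236 CPM. The one led by C1qa had no Ereg UMI. Their part in the Ereg ratio was not tested.

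By UMIs fibroblast-like cells were the next source of Ereg, with 11.6% of the DJ-1 KO OVA, 11.3% of the WT OVA and 8.36% of the WT PBS UMIs of the gene. They had 11.5 CPM (6.67 to 18.3) in DJ-1 KO OVA, 32.6 CPM (25.3 to 41.2) in WT OVA and 9.18 CPM (5.88 to 13.7) in WT PBS. A single WT OVA cell held 35 of that library's 69 UMIs. The ratio of DJ-1 KO OVA to WT OVA was 0.352 (0.194 to 0.605), but it came within 1.5-fold when every cell was weighted alike (log2 ratio -0.32).

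Hbegf, the heparin-binding ligand that also serves as the diphtheria toxin receptor in humans, had its largest difference in alveolar macrophage-like cells. DJ-1 KO OVA cells held 414 UMIs at 176 CPM (160 to 194), WT OVA cells 12 UMIs at 6.15 CPM (3.18 to 10.8) and WT PBS cells 1 UMI at 0.949 CPM (0.0240 to 5.29). The ratio of DJ-1 KO OVA to WT OVA was 28.6 (16.2 to 55.9). An Hbegf UMI was found in 83 of 261 DJ-1 KO OVA cells, 8 of 188 WT OVA cells and 1 of 59 WT PBS cells. Median depths were 5870 UMIs in DJ-1 KO OVA, 10371.5 UMIs in WT OVA and 17163 UMIs in WT PBS, so the library with the shallowest cells of this class had the highest share. After thinning the share was 11.1% of 235 DJ-1 KO OVA cells, 0 of 181 WT OVA cells (up to 1.66%) and 0 of 57 WT PBS cells (up to 5.26%). In B-like cells the unthinned share was 0.302% in DJ-1 KO OVA, 0.108% in WT OVA and 0.159% in WT PBS.

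The Hbegf UMIs of the class were spread over its sub-clusters, which the libraries filled unequally. The sub-cluster led by Ccl17 held 82 DJ-1 KO OVA and 12 WT OVA cells, with Hbegf at 165 CPM (201 UMIs) in DJ-1 KO OVA and 8.21 CPM (1 UMI) in WT OVA. In the one led by C1qa, Hbegf was at 365 CPM in 40 DJ-1 KO OVA cells and 67.1 CPM in 14 WT OVA cells. A sub-cluster led by the lymphocyte genes Ccl5, Gzma and Cd3d had Hbegf at 230 CPM in 40 DJ-1 KO OVA cells and 5.06 CPM in 30 WT OVA cells. The sub-cluster led by Ereg itself held 4 DJ-1 KO OVA, 78 WT OVA and 32 WT PBS cells, with no Hbegf UMI in any of the 3. At least 2 UMIs of 5 lymphocyte genes were found in 11.1% of DJ-1 KO OVA cells, 16.0% of WT OVA cells and 28.8% of WT PBS alveolar macrophage-like cells. Without such cells the log2 ratio of Hbegf between DJ-1 KO OVA and WT OVA was 4.51, against 4.84 with them. It was 4.78 with 1 doublet score limit of 0.25 in all libraries and 4.82 with the lower-UMI cells of shared barcodes kept.

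The same macrophages could hold more than 1 ligand. In DJ-1 KO OVA, 29 of 261 cells had UMIs of both Areg and Hbegf, 20 had both Areg and Ereg, and 11 had both Ereg and Hbegf. In WT OVA, 5 of 188 cells had Areg and Hbegf, 58 had Areg and Ereg, and 1 had Ereg and Hbegf. In WT PBS, 14 of 59 cells had Areg and Ereg, and no cell had Hbegf with either. Joint detection rises with depth, which differed between the libraries as given above.

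**Figure D3:**
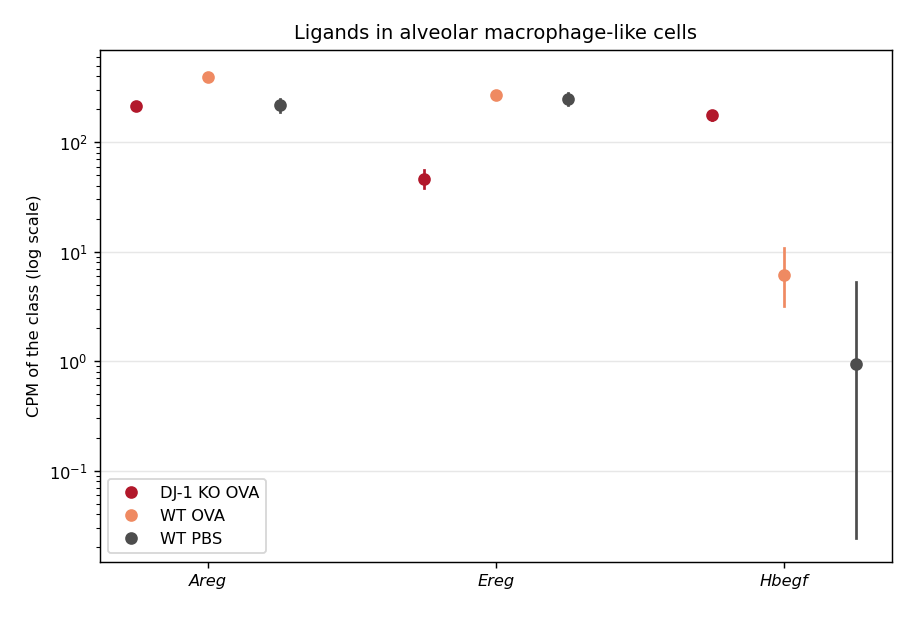
Level of Areg, Ereg and Hbegf (CPM of the class, log scale) in alveolar macrophage-like cells of DJ-1 KO OVA (red), WT OVA (orange) and WT PBS (grey), with 95% exact Poisson intervals as bars. In DJ-1 KO OVA Hbegf is at 176 CPM and Ereg at 46.4 CPM, against 6.15 CPM (Hbegf) and 270 CPM (Ereg) in WT OVA and 0.949 CPM (Hbegf) and 249 CPM (Ereg) in WT PBS.

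The plot of ligands in alveolar macrophage-like cells puts the Ereg and Hbegf differences of DJ-1 KO OVA side by side, in opposite directions. Other myeloid classes also held Hbegf. Interstitial macrophage-like cells had 174 CPM (111 to 258) in 38 DJ-1 KO OVA cells, 25.8 CPM (9.48 to 56.2) in 46 WT OVA cells and 39.7 CPM (18.2 to 75.4) in 30 WT PBS cells. Monocyte-like cells had 74.4 CPM (15 UMIs) in DJ-1 KO OVA, 37.6 CPM (26 UMIs) in WT OVA and 2.10 CPM (3 UMIs) in WT PBS. The WT OVA monocyte-like level was 17.9-fold that of WT PBS, with a wide interval of 5.49 to 92.5.

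Epithelial Hbegf went the other way, and the goblet-like cells differed most. Goblet-like cells, the mucus-making cells of the airway, had 32.1 CPM (24.5 to 41.3) in DJ-1 KO OVA, 217 CPM (193 to 243) in WT OVA and 117 CPM (97.2 to 139) in WT PBS. The UMIs came from 18 of 74 cells in DJ-1 KO OVA, 40 of 57 cells in WT OVA and 15 of 23 cells in WT PBS, and a single WT PBS cell held 47 of that library's 126 UMIs. The ratio of DJ-1 KO OVA to WT OVA was 0.148 (0.110 to 0.195), where 16.9% of all genes were at least 1.5-fold higher and 9.9% lower. After thinning, 5.80% of 69 DJ-1 KO OVA cells, 26.3% of 57 WT OVA cells and 8.70% of 23 WT PBS cells had an Hbegf UMI. Over the alternatives in processing the goblet-like ratio lay between 0.08 and 0.24.

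AT2-like cells held most epithelial Hbegf UMIs and differed less. Their level was 90.0 CPM (79.1 to 102) in DJ-1 KO OVA, 111 CPM (103 to 120) in WT OVA and 107 CPM (97.0 to 117) in WT PBS. The ratio was 0.810 between DJ-1 KO OVA and WT OVA cells (0.695 to 0.941) and 1.04 between WT OVA and WT PBS cells (0.919 to 1.18), both within 1.5-fold. Club-like cells had 64.4 CPM (48.7 to 83.7) in DJ-1 KO OVA, 101 CPM (85.3 to 119) in WT OVA and 47.7 CPM (33.6 to 65.8) in WT PBS. Mesothelial-like cells, which line the pleura, had 22.4 CPM (12.3 to 37.6) in DJ-1 KO OVA, 83.4 CPM (63.9 to 107) in WT OVA and 39.7 CPM (23.5 to 62.8) in WT PBS. DJ-1 KO OVA was thus at 0.269 times WT OVA in mesothelial-like cells (0.139 to 0.486), from 14 DJ-1 KO OVA and 62 WT OVA UMIs.

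**Figure D4:**
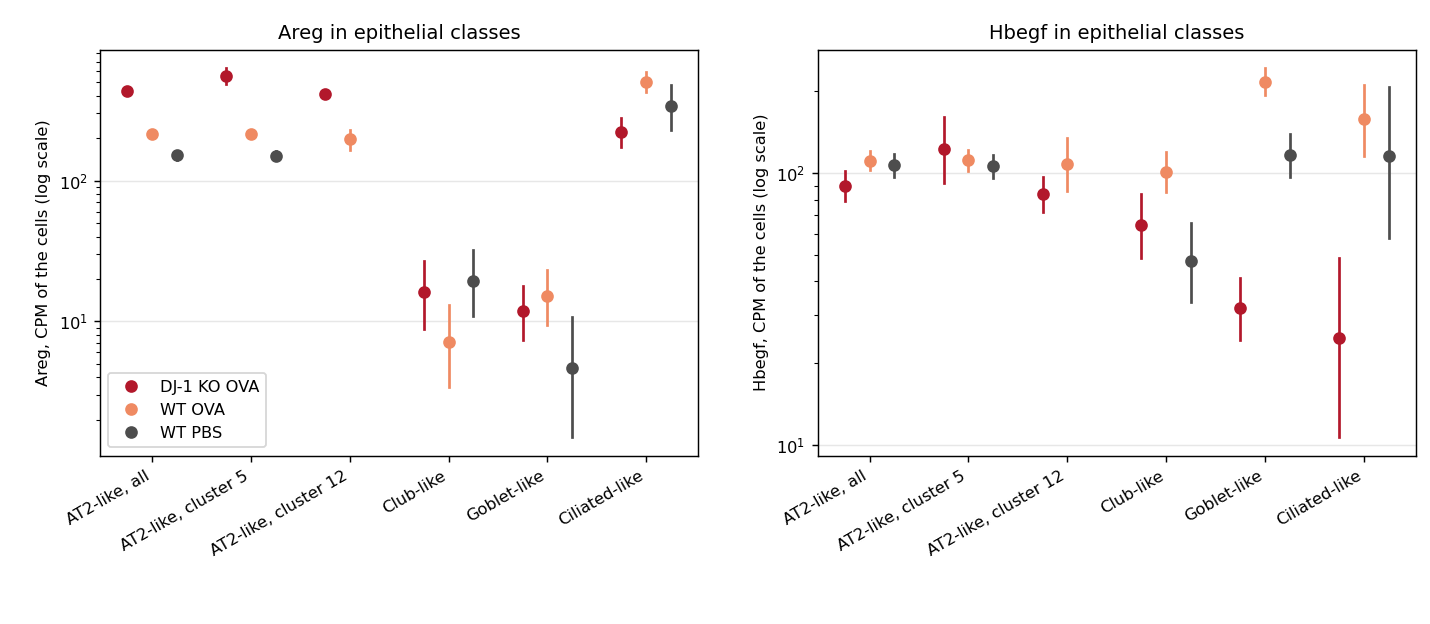
Areg (left) and Hbegf (right) level in CPM on a log scale in epithelial classes of DJ-1 KO OVA (red), WT OVA (orange) and WT PBS (grey), with 95% exact Poisson intervals as bars and AT2-like cells also split into clusters 5 and 12. Areg is 435 CPM in DJ-1 KO OVA against 213 CPM in WT OVA AT2-like cells, while goblet-like Hbegf is 32.1 CPM in DJ-1 KO OVA cells against 217 CPM in WT OVA.

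The plot of Areg and Hbegf in epithelial classes shows the Areg difference between DJ-1 KO OVA and WT OVA in AT2-like cells and the larger Hbegf difference in goblet-like cells. Its ciliated-like points rest on 12 DJ-1 KO OVA, 12 WT OVA and 7 WT PBS cells, too few for a ratio here. Btc and Tgfa were low and mostly epithelial. Btc in AT2-like cells was at 7.78 CPM in DJ-1 KO OVA (21 UMIs), 6.80 CPM in WT OVA (37 UMIs) and 6.15 CPM in WT PBS (25 UMIs), with overlapping intervals. Tgfa in AT2-like cells was at 17.8 CPM (13.1 to 23.6) in DJ-1 KO OVA, 18.9 CPM (15.5 to 23.0) in WT OVA and 10.8 CPM (7.87 to 14.5) in WT PBS. It was 1.75-fold higher in WT OVA cells than in WT PBS cells (1.22 to 2.55), and 0.939 times as high in DJ-1 KO OVA as in WT OVA (0.653 to 1.34). In club-like cells too the Tgfa level was lowest in WT PBS, with 23.0 CPM in DJ-1 KO OVA (20 UMIs), 19.2 CPM in WT OVA (27 UMIs) and 7.74 CPM in WT PBS (6 UMIs). Mesothelial-like cells held 14.3% of the Tgfa UMIs of DJ-1 KO OVA, 16.6% of those of WT OVA and 15.7% of those of WT PBS, from 69 DJ-1 KO OVA cells, 105 WT OVA cells and 33 WT PBS cells of this class.

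Among the receptors, Egfr was mainly a stromal gene in these libraries. Stromal cells held 51.0% of its UMIs in DJ-1 KO OVA, 52.4% in WT OVA and 63.4% in WT PBS. In fibroblast-like cells its level was 69.4 CPM (56.6 to 84.2) in DJ-1 KO OVA, 49.6 CPM (40.5 to 60) in WT OVA and 46.3 CPM (38.4 to 55.3) in WT PBS. The 20 smooth muscle-like cells of WT OVA had 5 Egfr UMIs at 181 CPM, with a wide interval of 58.7 to 422. The ratio was 1.40 between DJ-1 KO OVA and WT OVA cells (1.06 to 1.86) and 1.07 between WT OVA and WT PBS cells (0.817 to 1.40), so neither passed 1.5-fold. Of all genes of the class 13.6% were higher and 7.95% lower by that rule in DJ-1 KO OVA than WT OVA cells, and 7.36% higher and 10.1% lower in WT OVA than WT PBS cells. Mesothelial-like cells had 52.9 CPM in DJ-1 KO OVA, 40.3 CPM in WT OVA and 44.1 CPM in WT PBS, with overlapping intervals. No B-like cell of any library had an Egfr UMI, while 23.9% of DJ-1 KO OVA cells, 19.8% of WT OVA cells and 26.5% of WT PBS fibroblast-like cells had one.

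Egfr in AT2-like cells was low, at 11.9 CPM (32 UMIs) in DJ-1 KO OVA, 8.46 CPM (46 UMIs) in WT OVA and 5.42 CPM (22 UMIs) in WT PBS. The intervals of WT OVA and WT PBS overlap, with a ratio of 1.56 (0.921 to 2.73). An Egfr UMI together with an Areg UMI was found in 19 of 296 DJ-1 KO OVA cells, 16 of 769 WT OVA cells and 10 of 303 WT PBS AT2-like cells. Cells with Areg and no Egfr UMI numbered 116 in DJ-1 KO OVA, 259 in WT OVA and 99 in WT PBS, so most cells with Areg had no Egfr UMI at this depth.

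Erbb3 was the most strictly epithelial member. Epithelial cells held 93.8% of its UMIs in DJ-1 KO OVA, 93.3% in WT OVA and 89.6% in WT PBS. AT2-like cells had 67.8 CPM (58.3 to 78.4) in DJ-1 KO OVA, 86.8 CPM (79.1 to 95) in WT OVA and 77.3 CPM (69.0 to 86.3) in WT PBS, a DJ-1 KO OVA over WT OVA ratio of 0.782 (0.655 to 0.929). Goblet-like cells had 39.5 CPM in DJ-1 KO OVA, 26.0 CPM in WT OVA and 26.8 CPM in WT PBS, and the first was 1.52-fold the second (1.01 to 2.33). The direction of the Erbb3 difference between DJ-1 KO OVA and WT OVA was therefore opposite in AT2-like and goblet-like cells, and the difference between the classes was not tested.

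Erbb2 was epithelial and, to a lesser part, stromal. Epithelial cells held 76.9% of its UMIs in DJ-1 KO OVA, 78.9% in WT OVA and 73.5% in WT PBS. AT2-like cells had 38.5 CPM (31.5 to 46.7) in DJ-1 KO OVA, 35.7 CPM (30.8 to 41.0) in WT OVA and 25.4 CPM (20.7 to 30.7) in WT PBS. Fibroblast-like cells had 26.9 CPM in DJ-1 KO OVA, 17.9 CPM in WT OVA and 17.6 CPM in WT PBS. The DJ-1 KO OVA level passed 1.5-fold that of WT OVA (log2 ratio 0.59), but the interval of the ratio, 0.939 to 2.41, holds 1. Erbb2 and Erbb3, which signal as a pair, were found together in 44 of 296 DJ-1 KO OVA cells, 69 of 769 WT OVA cells and 51 of 303 WT PBS AT2-like cells.

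Set side by side over lineages, the DJ-1 KO OVA and WT OVA libraries differed at 1.5-fold or more in few members, counting genes with at least 20 UMIs over both libraries. Over all kept cells 1 of 8 members was lower and none was higher, where 12.3% of all 14710 genes were higher and 9.1% lower by the same rule. The lower member was Ereg (8.62 CPM in DJ-1 KO OVA, 26.7 CPM in WT OVA, ratio 0.323, 0.268 to 0.387). The other 7 ratios ran between 0.705 for Erbb3 and 1.29 for Egfr. With every cell weighted alike, or thinned to 1000 UMIs, 4 members passed.

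In epithelial cells 1 of 7 members was lower, against a background of 13.8% higher and 10.1% lower. This was Hbegf, at 63.7 CPM in DJ-1 KO OVA and 128 CPM in WT OVA (ratio 0.496, 0.440 to 0.559), and it came within 1.5-fold when every cell was weighted alike (log2 ratio -0.53) or thinned (log2 ratio -0.46). Epithelial Areg was at 222 CPM in DJ-1 KO OVA and 157 CPM in WT OVA (ratio 1.42, 1.31 to 1.53). AT2-like cells were 296 of 428 epithelial cells in DJ-1 KO OVA and 769 of 908 in WT OVA.

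In myeloid cells Hbegf was higher and Ereg lower among 3 members, against 16.2% and 15.7% of all genes. Hbegf was at 143 CPM in DJ-1 KO OVA and 11 CPM in WT OVA (ratio 13, 9.62 to 17.8), and Ereg at 33.0 CPM in DJ-1 KO OVA and 122 CPM in WT OVA (ratio 0.272, 0.219 to 0.334). Myeloid Areg was at 161 CPM in DJ-1 KO OVA and 199 CPM in WT OVA (ratio 0.813, 0.728 to 0.906). Alveolar macrophage-like cells were 261 of 672 myeloid cells in DJ-1 KO OVA and 188 of 1161 in WT OVA. Within that class the ratio was 28.6 for Hbegf, 0.172 for Ereg and 0.539 for Areg. The part of this cell share in the lineage ratios was not tested.

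In lymphoid cells 1 of 4 members was higher and 1 lower, against 8.6% and 7.98% of all genes. Areg was higher, with a ratio of 2.23 (2.01 to 2.47), and Tgfa was lower on 5 DJ-1 KO OVA and 16 WT OVA UMIs, with an interval that holds 1. Over the alternatives in processing the ratio of lymphoid Areg lay between 2.09 and 2.52, and with the lower-UMI cells of shared barcodes kept its log2 value was 1.15.

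The WT OVA and WT PBS libraries differed in more members over all kept cells, where 7 of 8 were higher and none lower, against 10.3% and 7.71% of all 14947 genes. The ratios were 2.17 for Areg (2.04 to 2.31), 2.28 for Ereg (1.98 to 2.63), 1.89 for Hbegf (1.72 to 2.08) and 2.46 for Tgfa (1.94 to 3.13). Erbb2 followed at 1.63, Erbb3 at 1.55 and Btc at 1.53, and Egfr was at 1.17 (0.960 to 1.44). Epithelial cells were 908 of 5930 cells in WT OVA and 369 of 3855 cells in WT PBS, and Hbegf came within 1.5-fold after thinning (log2 ratio 0.19).

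Inside epithelial cells 1 of 7 members was higher in WT OVA, against 7.75% of all genes higher and 7.67% lower. This was Tgfa, at 19.3 CPM in WT OVA and 10.8 CPM in WT PBS (ratio 1.78, 1.33 to 2.41). Epithelial Areg had a ratio of 1.42 and Hbegf of 1.27, while Btc, Egfr, Erbb2 and Erbb3 lay between 0.979 and 1.16. The ratios of Erbb2 and Erbb3 were thus nearer 1 within the epithelium than over all kept cells.

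In myeloid cells 3 of 4 members were higher in WT OVA, against 17.6% higher and 7.5% lower. They were Areg (3.26, 2.86 to 3.73), Ereg (2.29, 1.97 to 2.67) and Hbegf (2.10, 1.28 to 3.52). Alveolar macrophage-like cells were 188 of 1161 myeloid cells in WT OVA and 59 of 896 myeloid cells in WT PBS, and within that class the Ereg ratio was 1.09, as given above. Myeloid Hbegf came to a log2 ratio of 0.06 with every cell weighted alike. In lymphoid cells 2 of 4 members were higher, against 12.1% higher and 5.74% lower. These were Areg (2.27, 2.01 to 2.57) and Tgfa (2.19, 0.952 to 5.21), the second on 16 WT OVA and 11 WT PBS UMIs. Since both comparisons use the WT OVA library, a high or low WT OVA value moves them in opposite directions.

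**Figure D5:**
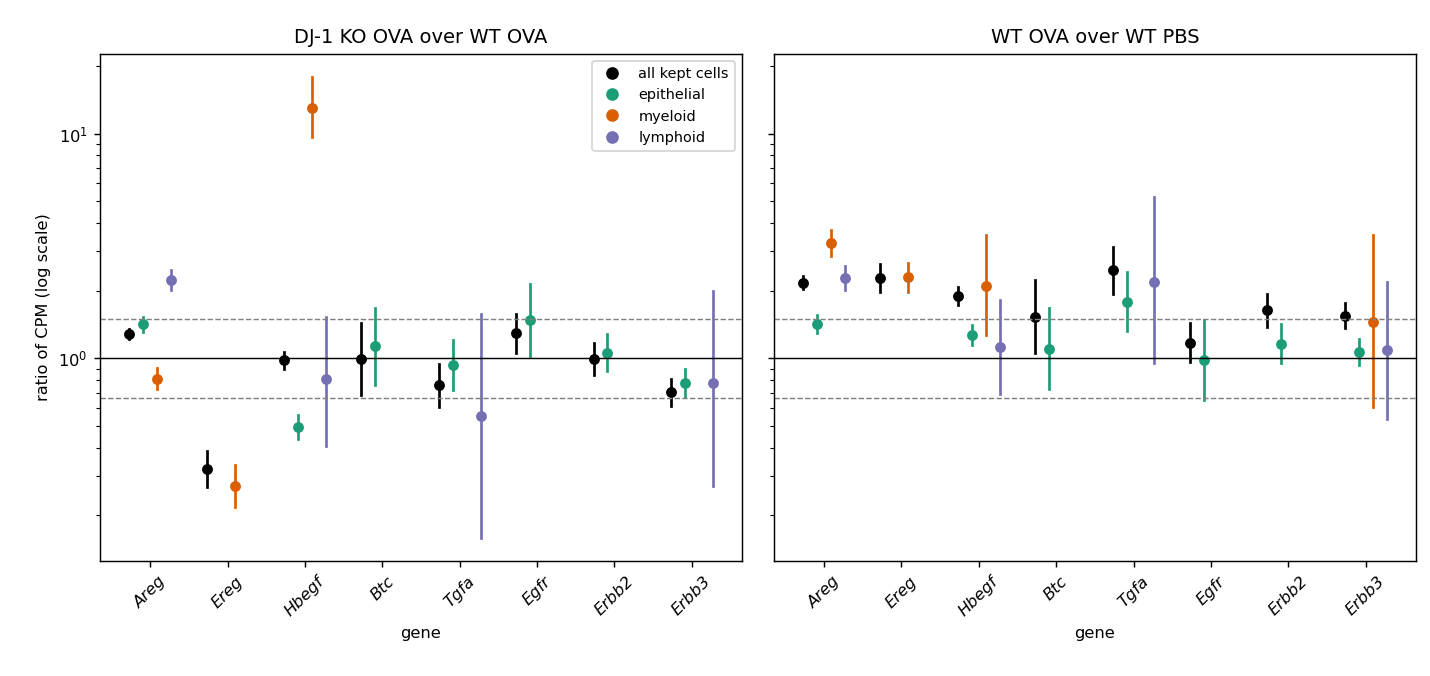
Ratio of CPM (log scale) of each member with at least 20 UMIs over both libraries, with DJ-1 KO OVA over WT OVA on the left and WT OVA over WT PBS on the right, in all kept cells (black), epithelial (green), myeloid (orange) and lymphoid (violet) cells, with 95% intervals and dashed lines at 1.5-fold either way. On the left myeloid Hbegf stands at 13 and epithelial Hbegf at 0.496, and on the right 7 of the 8 black points lie above the upper dashed line.

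The plot of ratios shows myeloid Hbegf as the member farthest from 1 in either comparison. The rest of the pathway was described from lists of genes in the same lineages. Of the other EGF family genes (Egf, Epgn, Nrg1 to Nrg4 and Erbb4), 4 of 7 had 20 UMIs over all kept cells. Between DJ-1 KO OVA and WT OVA 1 was higher and 0 lower (median log2 ratio 0.27, all genes 0.07), and between WT OVA and WT PBS 0 were higher and 2 lower (median -0.69, all genes 0.02). Of all genes over all kept cells, as given above, 12.3% were called higher and 9.1% lower in the first pair, and 10.3% higher and 7.71% lower in the second. Nrg2, a neuregulin gene, was at 23.6 CPM in DJ-1 KO OVA, 39.6 CPM in WT OVA and 72.3 CPM in WT PBS fibroblast-like cells. Of the 9 genes of ligand shedding, 3 were higher and 1 lower in DJ-1 KO OVA cells than in WT OVA cells (median 0.01), and 1 was higher and 0 lower in WT OVA cells than in WT PBS cells (median 0.26). Timp3, an inhibitor of ADAM proteases, was lower in DJ-1 KO OVA epithelial cells (166 CPM, against 343 CPM in WT OVA, ratio 0.483, 0.448 to 0.519), with a ratio of 0.687 inside AT2-like cluster 5 and 0.401 inside cluster 12. None of the 20 genes for adaptors and kinases passed 1.5-fold over all kept cells in either comparison (medians 0.03 and 0.02).

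Genes known to be induced by ERK, the kinase downstream of these receptors, were lower in the DJ-1 KO OVA epithelium than in that of WT OVA more often than higher. Of 13 measured there, 0 were higher and 7 lower in DJ-1 KO OVA cells than in WT OVA cells (median log2 ratio -0.62, all genes 0.03), where 13.8% of all genes were higher and 10.1% lower. In WT OVA cells 6 were higher and 0 lower than in WT PBS cells (median 0.58, all genes 0.02), where 7.75% of all genes were higher and 7.67% lower. Fewer were lower in DJ-1 KO OVA inside the 2 AT2-like clusters, which the libraries filled unequally, and the part of this in the epithelial counts was not tested. In these, 2 of 13 were higher and 1 lower in DJ-1 KO OVA cells of cluster 5 (median 0.03, with 17% of all genes higher and 15.2% lower), and 1 of 13 was higher and 1 lower in those of cluster 12 (median -0.16, with 19.7% higher and 7.54% lower). Etv5, an ETS-family transcription factor gene, was at 178 CPM in DJ-1 KO OVA and 387 CPM in WT OVA epithelial cells (ratio 0.459, 0.427 to 0.492). It was among the 10 leading genes of cluster 5, which held 68 DJ-1 KO OVA and 691 WT OVA cells, and its ratio was within 1.5-fold inside both clusters, at 0.840 (0.730 to 0.962) in cluster 5 and 0.746 (0.657 to 0.848) in cluster 12. Over all kept cells the counts were 0 higher and 2 lower of 13 in DJ-1 KO OVA (median -0.27) and 3 higher and 0 lower in WT OVA (median 0.37). In myeloid cells 3 of 13 were higher and 4 lower in DJ-1 KO OVA cells than in WT OVA cells (median -0.24, with 16.2% of all genes higher and 15.7% lower), and Fosl1, an AP-1 subunit gene, had 5 UMIs there against 95 in WT OVA. In lymphoid cells 5 of 12 were higher and 1 lower in DJ-1 KO OVA (median 0.51, with 8.6% of all genes higher and 7.98% lower).

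The feedback and receptor turnover genes of the epithelium followed with 1 of 17 higher and 6 lower in DJ-1 KO OVA cells than in WT OVA cells (median -0.20, all genes 0.03), and 3 higher and 0 lower in WT OVA cells than in WT PBS cells (median 0.19, all genes 0.02), against the epithelial shares of all genes just given. Inside cluster 5, 3 of 17 were higher and 3 lower in DJ-1 KO OVA cells than in WT OVA cells (median -0.06), and inside cluster 12, 2 of 14 were higher and 2 lower (median 0.03). Errfi1, which encodes the EGF receptor inhibitor MIG6, was at 699 CPM in DJ-1 KO OVA and 1438 CPM in WT OVA epithelial cells (ratio 0.486, 0.469 to 0.503), while its ratio was 0.957 (0.891 to 1.03) inside cluster 5 and 0.808 (0.750 to 0.870) inside cluster 12. Spry1, a Sprouty inhibitor of receptor tyrosine kinase signalling, had a ratio of 0.497 (0.454 to 0.544), with 0.881 inside cluster 5 and 0.622 inside cluster 12. Lrig2 had a ratio of 0.479 (0.320 to 0.704), with 0.571 (0.152 to 1.52) inside cluster 5 and 0.450 (0.219 to 0.945) inside cluster 12. Over all kept cells 3 of 17 were higher and 2 lower in DJ-1 KO OVA (median 0.02), and 2 higher and 0 lower in WT OVA (median 0.17). Errfi1 was 2.21-fold higher in WT OVA cells than in WT PBS cells over all kept cells (2.15 to 2.27). In fibroblast-like cells, the main Egfr cells, Spry4 was at 53.2 CPM in DJ-1 KO OVA and 23.6 CPM in WT OVA (ratio 2.26, 1.56 to 3.28).

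Genes of the lymphoid setting of Areg (Foxp3, Il1rl1, Gata3, Il2ra, Rora, Il5 and Il13) were higher in 6 of 7 and lower in 0 in lymphoid cells of DJ-1 KO OVA than of WT OVA (median log2 ratio 1.03, all genes 0.09), where 8.6% of all genes were higher and 7.98% lower. Il13 had 147 UMIs in DJ-1 KO OVA lymphoid cells and 7 UMIs in WT OVA lymphoid cells, a ratio of 37.2 (17.6 to 94.2). Il1rl1 had a ratio of 3.16 (2.84 to 3.52) and Gata3, the transcription factor of type 2 lymphocytes, of 2.67 (2.47 to 2.90). Gata3, Rora, Il1rl1, Il5 and Il13 were also markers used to name ILC2-like cells. These cells were 99 of 1922 lymphoid cells in DJ-1 KO OVA and 63 of 3152 in WT OVA. The part of this cell share in the ratios was not tested. Between WT OVA and WT PBS 4 of 7 were higher and 1 lower (median 0.75, all genes 0.11), where 12.1% of all genes were higher and 5.74% lower, with Foxp3 at 37.5 CPM in WT OVA and 8.99 CPM in WT PBS (ratio 4.17, 3.23 to 5.41).

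The patterns of the members over cells were compared with those of 11852 other genes, as Pearson correlations of log2(CPM + 10) over 45 sums of a class in a library, from 18 classes. The 45 points share libraries, depth and cell types, and a gene of the same cells gives a high value, so the correlations only describe likeness. Ereg was most like Mertk, an efferocytosis receptor of macrophages (r = 0.944), Kcnn3 (0.935) and Gm13571 (0.908). Egfr was most like Cpq (0.958), Pcolce, an enhancer of procollagen processing (0.953), and Gnai1 (0.953). Erbb3 was closest to Tmem184a (0.955), Ehf, an epithelial transcription factor (0.942), and Slc44a3 (0.935), and Erbb2 to Fat1 (0.952), P4ha2 (0.941) and Ptprk (0.938). Tgfa was closest to Cxadr, an epithelial junction protein (0.923), AI661453 (0.920) and Eps8l2 (0.912). Areg and Hbegf, which had several kinds of source cell, had lower highest values, with Ldha (0.769), Hacd3 (0.754) and Itgav (0.753) for Areg, and Cracr2b (0.763), Edn1 (0.754) and Cldn3 (0.752) for Hbegf. Btc had fewer than 200 UMIs and was not ranked.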

How the data were processed

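The deposited matrices of the 3 libraries hold raw UMI counts per gene and barcode, and per the file headers the software version was 3.1.0. Per the submitters' processing notes, Cell Ranger, STAR and the mm10 build (GRCm38) were used, with no versions given. The deposited counts were not normalized by the authors, and no barcode had fewer than 500 UMIs, so cells had been called before deposit. Cells passed with no fewer than 200 genes and no more than 20% of UMIs from mitochondrial genes (4506 DJ-1 KO OVA, 6092 WT OVA and 4214 WT PBS cells). Scrublet (expected rate 0.06) then called 3 doublets in DJ-1 KO OVA (score limit 0.581), 162 in WT OVA (0.245) and 57 in WT PBS (0.319), which were left out. It hardly worked in DJ-1 KO OVA. An alternative with a limit of 0.25 in every library was therefore added after the data were seen.

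The libraries were clustered together (log counts scaled to 10000, 2000 variable genes, 30 components, 15 neighbours, Leiden resolution 1) in Python 3.11.15 with scanpy 1.11.5, leidenalg 0.10.2, igraph 0.11.9, scikit-learn 1.9.0, NumPy 2.4.6, SciPy 1.17.1 and pandas 2.3.3, and the plots were drawn with matplotlib 3.10.9. Clusters were named from 39 marker lists by a mean score of at least 1 with at least 3 markers detected in 10% of cells. Counts were summed per library and class and divided by the summed UMIs. Calling a difference needed 1.5-fold and 20 UMIs over both libraries, and ratios were made for classes with at least 50 cells in both. There was no test, since each group is 1 library. Thinning drew 1000 UMIs from each cell and left out shallower cells, which were 971 DJ-1 KO OVA, 392 WT OVA and 134 WT PBS cells.

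The members and the lists were chosen with earlier results of these data known. Named genes are the members, Park7, markers, the 3 genes most like each member with at least 200 UMIs, and list genes past 2-fold with 100 UMIs, up to 6 in a lineage and comparison. Nrg2, the Foxp3 and Il1rl1 split of regulatory T-like cells, the sub-clusters, and the list ratios inside the AT2-like clusters were chosen after values were seen. Positions are from the RefSeq annotation of GRCm38.p6.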

Additional observations from a re-analysis of the deposited data

Results flagged for a closer look

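Hbegf moved in opposite directions in 2 lineages under the same contrast. The ratio of DJ-1 KO OVA to WT OVA was 13 in myeloid cells and 0.496 in epithelial cells. Over the alternatives in processing the epithelial ratio lay between 0.487 and 0.727. It came within 1.5-fold when every cell was weighted alike or thinned. In AT2-like cells, which were 296 of 428 epithelial cells in DJ-1 KO OVA and 769 of 908 in WT OVA, it was 0.810. These are shares of cells, whereas the lineage ratio weighs cells by their UMIs. The median goblet-like cell had 22217 UMIs in DJ-1 KO OVA and 25757 UMIs in WT OVA, and the median AT2-like cell 9225.5 and 6922 UMIs. Myeloid cells held 471 Hbegf UMIs in DJ-1 KO OVA and 48 UMIs in WT OVA, and epithelial cells held 367 UMIs in DJ-1 KO OVA and 1093 UMIs in WT OVA. The difference between the lineages was not tested, because each group is 1 library.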

How the results depend on the processing

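Each of 109 ratios and 8 counts of members was recomputed under up to 15 alternatives. Of the ratios 3 were reversed, all for Areg in DJ-1 KO OVA over WT OVA: regulatory T-like cells at resolution 2 (log2 ratio -0.55), gamma delta T-like cells when every library had its own clustering (0.89) and NK-like cells at a doublet limit of 0.25 (-1.38). Many more were counted as moved, a change short of reversal. With every cell thinned to 1000 UMIs, 29 ratios moved and 24 stayed the same. With every cell weighted alike, 24 moved and 85 stayed the same. The causes were not tested. The counts of members past 1.5-fold between DJ-1 KO OVA and WT OVA cells became 4 in all kept cells when cells were weighted alike or thinned. In epithelial cells they became 2 with doublets kept, own clustering, equal weights or no UMI minimum. In lymphoid cells they became 1 when thinned or with at least 50 UMIs, and 4 with no minimum, and in myeloid cells 6 with no minimum. For WT OVA over WT PBS they became 1 in lymphoid cells with equal weights or at least 50 UMIs and 6 with no minimum, 7 in myeloid cells with no minimum, and 2 in epithelial cells with no minimum or without cells holding lymphocyte UMIs. Areg of CD4 T-like cells in WT OVA over WT PBS ran from -1.5 to 0.81 on the log2 scale. With the lower-UMI cells of shared barcodes kept, the myeloid Hbegf log2 ratio of DJ-1 KO OVA to WT OVA was 3.68. No paired analysis was possible because the only replicate number is 1 in every group. Depth limits the shares of cells with a UMI, with 1653 UMIs in the median DJ-1 KO OVA cell and 4093 in WT PBS.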

Other observations

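Some class levels of members rested on single cells. In ILC2-like cells of WT PBS 1 cell held 23 of 24 Hbegf UMIs, and ILC2-like cells of DJ-1 KO OVA had none in 99 cells. In endothelial cells of DJ-1 KO OVA 1 cell held 37 of 48 Hbegf UMIs. In WT PBS 1 endothelial cell held all 38 Areg UMIs, against 3 UMIs in DJ-1 KO OVA and 34 UMIs in WT OVA endothelial cells. In mesothelial-like cells 5 DJ-1 KO OVA cells held all 42 Areg UMIs, against 19 UMIs in WT OVA, and the log2 ratio was 1.40, or 0.35 with every cell weighted alike. Cycling cells, which were kept apart from the lineages, had Areg at 120 CPM in DJ-1 KO OVA (233 cells), 83.6 CPM in WT OVA (60 cells) and 38.2 CPM in WT PBS (45 cells).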
